A study of Mus musculus with 14 samples.

Results

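The nuclear-encoded genes of the mitochondrial respiratory chain and ATP synthase were followed in mouse corneal stroma and in cells grown from it. Their members were the genes whose symbol, on a probe set with a single gene symbol, begins with Nduf, Uqcr, Atp5 or Cox followed by 4 to 8, together with Sdha to Sdhd. The rule found 71 of the 8251 genes that had such a probe set. They were 31 genes of complex I, 4 of complex II, 7 of complex III, 15 of complex IV and 14 of complex V. Each gene was read from the probe set with the highest mean signal over the 14 arrays. The name rule takes in some assembly factors, such as Ndufaf1 and Ndufaf4, and misses Cyc1, a complex III subunit under another name. Atp5b, Ndufs7, Ndufs8 and Uqcrfs1, which encode central subunits, had no such probe set and were not analysed here.

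The study profiled 5 groups of CD-1 mouse samples, each array carrying total RNA of 1 sample. Tissue came from adult stroma at 7 to 8 weeks of age (3 arrays) and from stroma at postnatal day 10, here P10 (2 arrays). The other groups were primary cultures of stromal cells from mice of the adult age, with 3 arrays each. The medium was DMEM throughout. Its serum was platelet-poor horse serum at 1% for keratocyte cultures and fetal bovine serum at 10% for fibroblast cultures. Myofibroblast cultures had the fibroblast medium with 10 ng/ml TGF-beta1 added. Nothing in the labels says whether replicates were separate animals or cultures, so p-values measure the spread between these samples, which may be technical.

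The respiratory chain passes electrons from NADH, at complex I, and from succinate, at complex II, through ubiquinone to complex III, then by cytochrome c to complex IV, which reduces oxygen. Complexes I, III and IV pump protons, and complex V uses the return of protons to make ATP. Each complex except II is built from nuclear and mitochondrially encoded subunits, and only nuclear genes are described here. The corneal stroma is a sparsely populated, avascular collagen layer kept by quiescent keratocytes, which turn into proliferating fibroblasts in serum and into contractile myofibroblasts under TGF-beta1.

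Promoter windows from RefSeq (GRCm38.p6, 250 bases before to 50 after an annotated start) were at hand for 58 of the 71 genes. Short motifs of regulators of nuclear respiratory genes were counted on both strands, as a description. The NRF1 core GCATGC was in the windows of 13 of these 58 genes (22.4%) and in 8.93% of the 27025 genes of the promoter table. The ETS core CCGGAAG, which GABP binds, was in 16 (27.6%, against 9.93% of all), and the YY1 core ATGGCGG in 7 (12.1%, against 4.69%). The ERR site AAGGTCA was in 5 (8.62%, against 5.38%), and the CCAAT box in 24 (41.4%, against 41.1%). No motif contains another. The median GC content was 58.7% in the members' windows and 52.7% in all. In complex V, 6 of 12 genes held the NRF1 core, and in complex I 3 of 28.

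The stretches below are the 250 bases before the start of genes that were later called higher (Ndufab1, Ndufv2, Ndufb6) or lower (Sdhb, Ndufb2, Cox7a2l) in a culture than in adult stroma. They are the 6 of the 13 windows of called genes whose stretch overlaps no annotated gene. Each is written 5′ to 3′ toward the start, in RefSeq GRCm38.p6 coordinates, with motif matches in capitals.
Ndufab1, chr7:122101849-122102098, minus strand: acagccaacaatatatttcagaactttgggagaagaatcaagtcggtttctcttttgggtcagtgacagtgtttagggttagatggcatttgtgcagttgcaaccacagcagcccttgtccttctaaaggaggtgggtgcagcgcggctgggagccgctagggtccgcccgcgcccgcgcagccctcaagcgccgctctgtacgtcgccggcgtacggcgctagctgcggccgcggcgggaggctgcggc
Ndufv2, chr17:66101560-66101809, minus strand: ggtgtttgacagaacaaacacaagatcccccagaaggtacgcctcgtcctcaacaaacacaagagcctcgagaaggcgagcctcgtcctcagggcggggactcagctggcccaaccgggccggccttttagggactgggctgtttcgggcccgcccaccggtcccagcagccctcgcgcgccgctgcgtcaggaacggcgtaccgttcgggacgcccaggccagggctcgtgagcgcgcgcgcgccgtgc
Ndufb6, chr4:40279422-40279671, minus strand: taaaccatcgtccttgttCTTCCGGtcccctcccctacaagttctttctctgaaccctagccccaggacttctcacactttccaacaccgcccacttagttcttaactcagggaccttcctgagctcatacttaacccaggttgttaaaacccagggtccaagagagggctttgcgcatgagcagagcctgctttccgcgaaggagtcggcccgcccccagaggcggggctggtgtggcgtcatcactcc
Sdhb, chr4:140961021-140961270, plus strand: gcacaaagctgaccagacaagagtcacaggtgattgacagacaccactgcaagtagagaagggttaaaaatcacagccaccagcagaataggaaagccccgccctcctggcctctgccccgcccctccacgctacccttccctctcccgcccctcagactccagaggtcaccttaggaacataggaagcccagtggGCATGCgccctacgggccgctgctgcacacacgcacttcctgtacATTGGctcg
Ndufb2, chr6:39592315-39592564, plus strand: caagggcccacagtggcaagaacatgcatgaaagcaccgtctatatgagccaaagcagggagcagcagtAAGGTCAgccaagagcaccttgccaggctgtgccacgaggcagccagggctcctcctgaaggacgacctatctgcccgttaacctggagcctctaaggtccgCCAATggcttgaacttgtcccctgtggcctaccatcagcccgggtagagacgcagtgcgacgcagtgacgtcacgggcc
Cox7a2l, chr17:83514334-83514583, minus strand: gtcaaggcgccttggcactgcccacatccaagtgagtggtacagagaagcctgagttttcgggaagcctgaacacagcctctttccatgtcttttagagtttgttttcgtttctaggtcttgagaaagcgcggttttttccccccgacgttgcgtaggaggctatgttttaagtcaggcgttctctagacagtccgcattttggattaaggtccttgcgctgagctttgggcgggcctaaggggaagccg
The Sdhb stretch holds the NRF1 core with its first base at -54 and a reversed CCAAT box at -9, counted from the start. The Ndufb2 stretch holds an ERR site at -181 and a CCAAT box at -79, and the Ndufb6 stretch a reversed ETS core at -232. No searched motif lies in the other 3 stretches. Of the genes called higher with a window, 3 of 6 held the ETS core, and of those called lower, 1 of 6. The CCAAT box was in 1 of 6 and 3 of 6, the NRF1 core and the ERR site in 1 of 6 of each, and the YY1 core in 0 of 6 of each. These are matches of letters, and binding was not measured.

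Values are probe set signals on a linear scale. Control probe sets for bacterial and yeast transcripts, 19 in number, had a 95th percentile of 138 over the 14 arrays, and signals under it are within the range of background. Array medians ran from 102 to 135.7. The 9 keratocyte markers had a summed signal of 17346 to 18447 in adult and 20675 to 21394 in P10 stroma, and 7576 to 20009 in the cultures. Of these, 5 rose and 1 fell in keratocyte, 3 rose and 3 fell in fibroblast, and 3 rose and 4 fell in myofibroblast cultures. Kera averaged 303 in adult stroma and 165, 44.7 and 8.96 in these cultures, Aldh3a1 6771 and 2076, 1565 and 15.4, and Lum 1178 and 2309, 2262 and 2446. Corneal epithelium markers summed to 24503 to 28242 in adult stroma and 27553 to 28212 in P10 stroma, but to 538 to 1009 in the cultures, and all 14 that were tested fell in each culture. Of 6 tested lens markers 3, 3 and 4 fell in keratocyte, fibroblast and myofibroblast cultures, and of 10 retina markers 9, 9 and 10. Macrophage markers summed to 1022 to 1526 in adult stroma, 3796 to 4885 in keratocyte, 1560 to 3222 in fibroblast and 1363 to 2179 in myofibroblast cultures. Of 12 macrophage markers 9 rose in keratocyte cultures, 7 rose and 1 fell in fibroblast cultures, and 3 rose and 3 fell in myofibroblast cultures. The 3′/5′ signal ratio of Actb, a measure of RNA integrity, was 4.05 on adult 1, 1.44 to 1.77 on the other tissue arrays and 1.196 or less on the culture arrays. The same ratio of Gapdh was 2.12 on adult 1 and 1.04 or less on all other arrays, so results without adult 1 are given where they differ. Tissue or culture, cell makeup and this ratio cannot be told apart in the comparisons with adult stroma, and the part of each in the results was not tested. In such bulk RNA, fewer cells of a type and less RNA per cell cannot be told apart either.

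Most respiratory chain genes gave strong signals in every group. Their mean signal over the arrays had a median of 503, against 128 for all 12422 probe sets. All 14 arrays were above the background range for 55 of the 71 genes, some for 3 and none for 13. The 13 include Sdha, the flavoprotein of complex II, and Cox5a, a matrix-side subunit of complex IV, whose probe sets averaged 84.4 and 89.0. The brightest probe sets were Ndufb5 in complex I (809), Sdhc in complex II (607), Uqcrq in complex III (1313), Cox6c in complex IV (1432) and Atp5l in complex V (1496). The dimmest were Ndufa12 (20.8), Sdha, Uqcrc2 (298), Cox7a1 (7.40) and Atp5j2 (48.7). Brightness of different probe sets was not compared further, since each probe set has its own response.

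Isoform genes are given each against background, not against each other. Cox7a1 and Cox8b, isoforms typical of muscle, were within background on every array, at 5.26 ± 0.992 and 94.1 ± 23.1 (SD, n = 3) in adult stroma. Cox6a2, the muscle isoform of subunit 6a, read 431 ± 106 in adult stroma and 341 ± 20.7, 307 ± 39.1 and 314 ± 44.1 in keratocyte, fibroblast and myofibroblast cultures (SD, n = 3 each). Of 19 skeletal muscle markers 8, among them Ckm, Tnnt3, Tnni2 and Ryr1, were within background on all arrays, 6 (Atp2a1, Casq1, Mb, Myoz1, Pvalb and Tnnc2) were above it on all arrays, and 5 on some. Their summed signal was 2836 to 3768 in adult stroma, 4752 to 5284 in P10 stroma, 3757 to 4127 in keratocyte, 4050.2 to 5809 in fibroblast and 5113 to 6499.7 in myofibroblast cultures. Cox8c and Cox6b2, isoforms known from testis, read 309 ± 39.1 and 292 ± 28.8 in adult stroma, above background on all arrays. This Cox6b2 set carries a gene family suffix, and the other Cox6b2 sets averaged 35.1 and 24.4 over the arrays. A second Cox8c set averaged 116 in adult stroma, within background. Cox8a and Cox6b1, the widely expressed isoforms, read 36.7 ± 12.2 and 53.7 ± 4.55, within background on all arrays. Cox6a1 and Cox7a2, the widely expressed isoforms, read 1631 ± 294 and 989.7 ± 200.1 there. Atp5g2, a gene for subunit c of ATP synthase, read 523 ± 156. Atp5g1, another, read 160.4 ± 43.3 and was above background on 5 of 14 arrays. How far these probe sets separate the isoforms was not tested.

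Changes were read from 67 members, those with a mean signal of 50 or more in at least 1 group. Ndufa12, Ndufs4, Cox7a1 and Cox8a missed this level. A change here is a difference in log2(signal + 16), which understates changes of dim genes, and a call is an adjusted p below 0.05 in limma over 10370 probe sets. Over the 5 groups together, limma's F test called 8 of the 67, against 34.8% of all probe sets. They were Ndufs1, Ndufab1, Ndufb3 and Ndufb6 of complex I, Sdhc, Uqcrq, Cox6c and Atp5md. Without adult 1 or without P10 2 the F test called 5, where it called 29.3% and 28.7% of all probe sets.

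**Figure D1:**
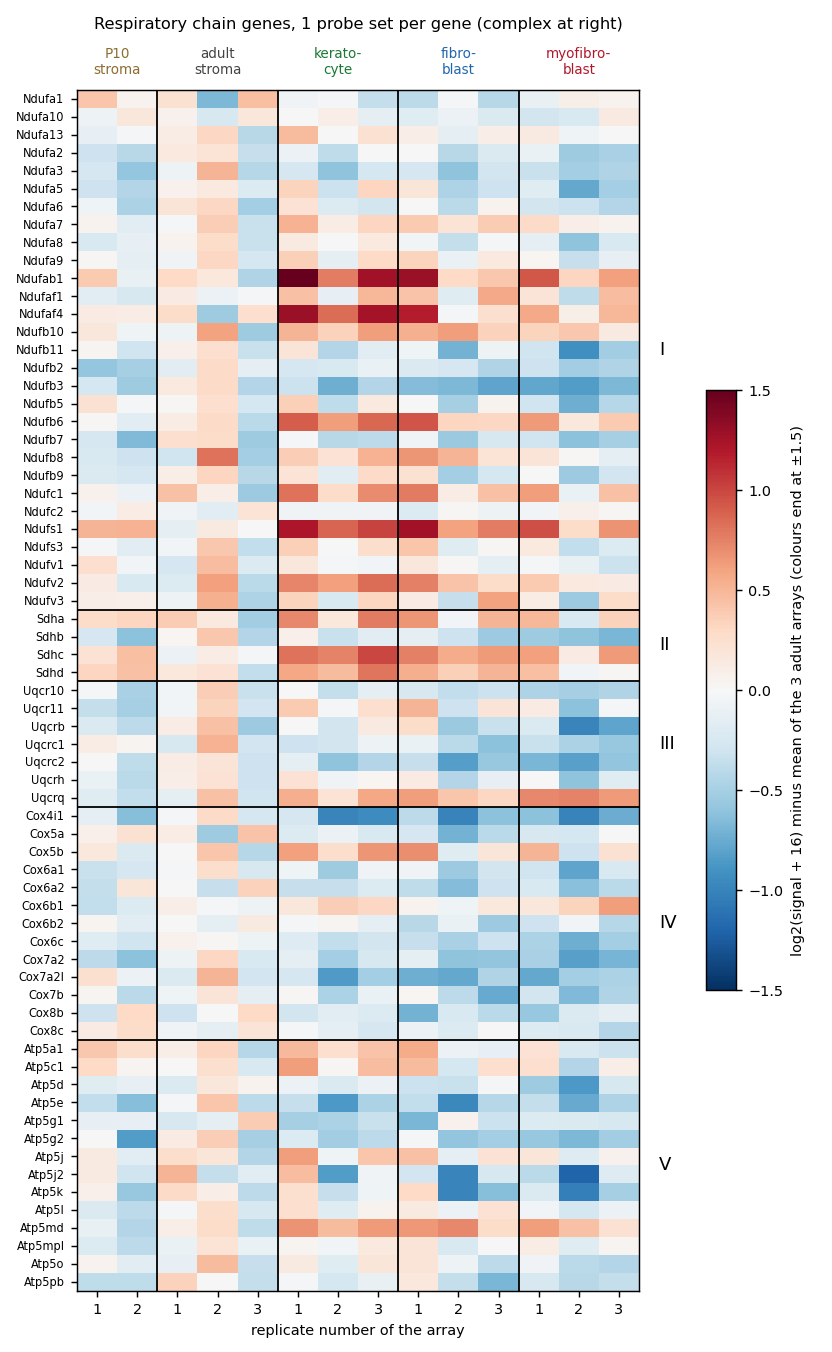
Each cell is log2(signal + 16) of 1 gene on 1 array minus that gene's mean over the 3 adult arrays, with red for higher, blue for lower and colours ending at ±1.5. Rows are the 67 genes by complex and columns the 14 arrays by group. Ndufs1 and Sdhc are above 0 on every culture array, and Cox6c and Ndufb3 are below 0 on every culture array.

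Compared with adult stroma, each culture had a smaller share of respiratory chain genes called than of all probe sets. In keratocyte cultures 8 members rose and 1 fell of 67, where 31.1% of all probe sets were called, 21.8% higher and 9.25% lower. In fibroblast cultures 3 rose and 5 fell, where 30.8% were called, 18.4% higher and 12.3% lower. In myofibroblast cultures 3 rose and 8 fell, where 33% were called, 17.5% higher and 15.5% lower. The called shares of members were 13.4%, 11.9% and 16.4%. The 95% interval of the difference lay within 2-fold either way for 53, 55 and 51 members (79.1%, 82.1% and 76.1%), against 59.2%, 59.5% and 57.9% of all probe sets. These comparisons share the 3 adult arrays.

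The number of calls leaned on single arrays and on scaling. Without keratocyte 3, 5 members were called in keratocyte cultures, with 22.9% of all probe sets. In fibroblast cultures 4 were called without adult 1, 14 without adult 2 and 3 without fibroblast 2, with 24.8%, 33.6% and 29.3% of all. In myofibroblast cultures the count was 18 without adult 3, 7 without myofibroblast 1, 6 without myofibroblast 2 and 7 without myofibroblast 3, with 31.3%, 26.5%, 29.4% and 26.8% of all. With each array centred on its median, 5 members rose and 8 fell in keratocyte, 2 and 8 in fibroblast, and 3 and 6 in myofibroblast cultures, with 32.8%, 32.3% and 34.5% of all probe sets called. With quantile normalization 7 rose and 10 fell, 3 and 12, and 3 and 17, with 34.1%, 33.6% and 36.5% of all called. Centring moved the median of all probe sets from 0.12 to -0.05 for keratocyte minus adult and from -0.12 to 0.05 for adult minus P10.

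By complex, the medians ran in different directions. In keratocyte, fibroblast and myofibroblast cultures minus adult stroma, the median log2 difference was 0.58, 0.42 and 0.17 for the 4 genes of complex II, and -0.21, -0.38 and -0.42 for the 13 genes of complex IV. It was 0.11, 0.02 and -0.12 for complex I, -0.04, -0.20 and -0.46 for complex III, and -0.01, -0.16 and -0.26 for complex V. All probe sets had medians of 0.12, 0.04 and -0.01. Of the complex IV genes 11 of 13 lay below 0 in each culture, under all 3 scalings except that centring gave 12 in fibroblast cultures. Cox4i1, Cox6b2 and Cox8c, the complex IV genes with several tested probe sets, each had another set above 0 in every culture. These sets differed by 0.13, 0.38 and 0.50 for Cox4i1, by 1.96, 1.14 and 1.16 for Cox6b2, and by 0.57, 0.49 and 0.29 for Cox8c. Cox5a, Cox6b1 and Cox8b were within background on every array. Of all probe sets 40.8%, 47.2% and 50.8% lay below 0. The complex II medians stayed above 0 and those of complexes III to V below 0 under all 3 scalings, while the complex I medians of keratocyte and fibroblast cultures turned to -0.06 and -0.05 with centring and to -0.06 and -0.06 with quantile normalization.

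**Figure D2:**
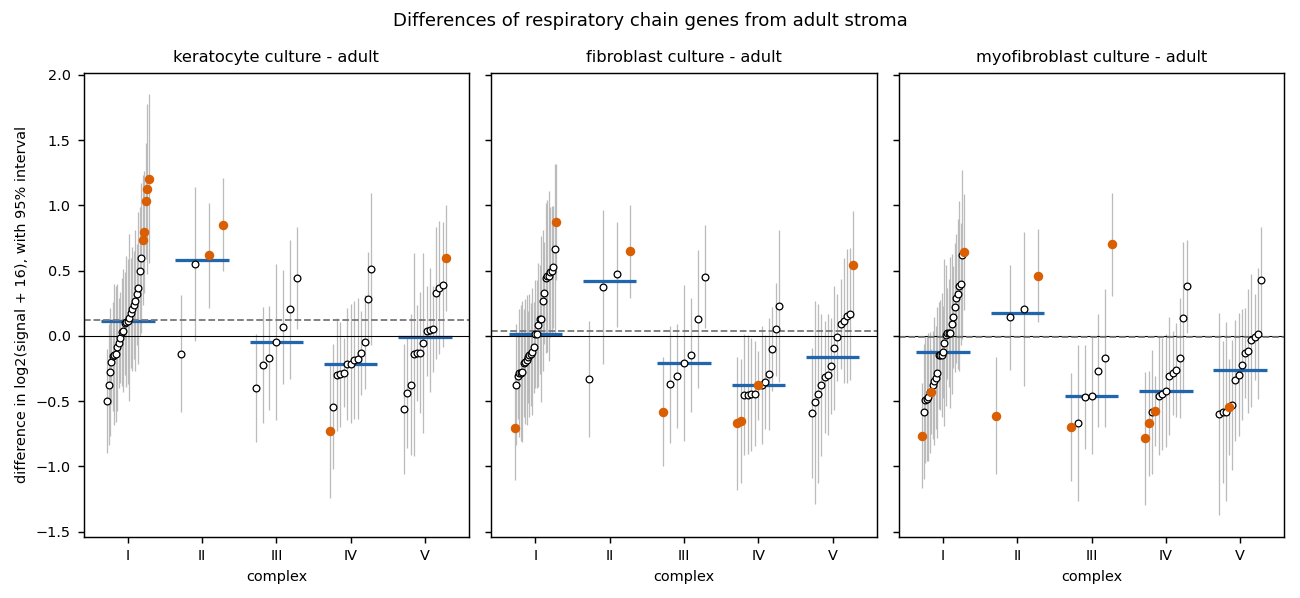
Each point is the difference of 1 gene from adult stroma in log2(signal + 16), with its 95% interval as a grey line, for the complexes I to V in 3 panels, 1 for each culture. Orange points were called, blue bars are medians of a complex, and the dashed line is the median of all probe sets. The complex II bar is the highest in every panel (0.58, 0.42 and 0.17), and the complex IV bar lies at -0.21, -0.38 and -0.42.

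The arrays within a group also differed for these genes. Relative to the adult mean, the median of the complex I genes was 0.06, 0.29 and -0.35 on adult 1, 2 and 3, and that of all probe sets was 0.00, -0.03 and 0.04. Complex II, III and V behaved alike, with adult 2 the highest and adult 3 the lowest, whereas complex IV ran only from -0.08 to 0.01 over the adult arrays. Among cultures, array 2 was the lowest of its group for complexes I to V in keratocyte, fibroblast and myofibroblast cultures, as it was for all probe sets (0.04, -0.05 and -0.11). All complex IV medians of the 9 culture arrays, from -0.51 to -0.14, lay below the adult ones. Those of the P10 arrays, at -0.14 and -0.20, lay below the adult ones too.

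**Figure D3:**
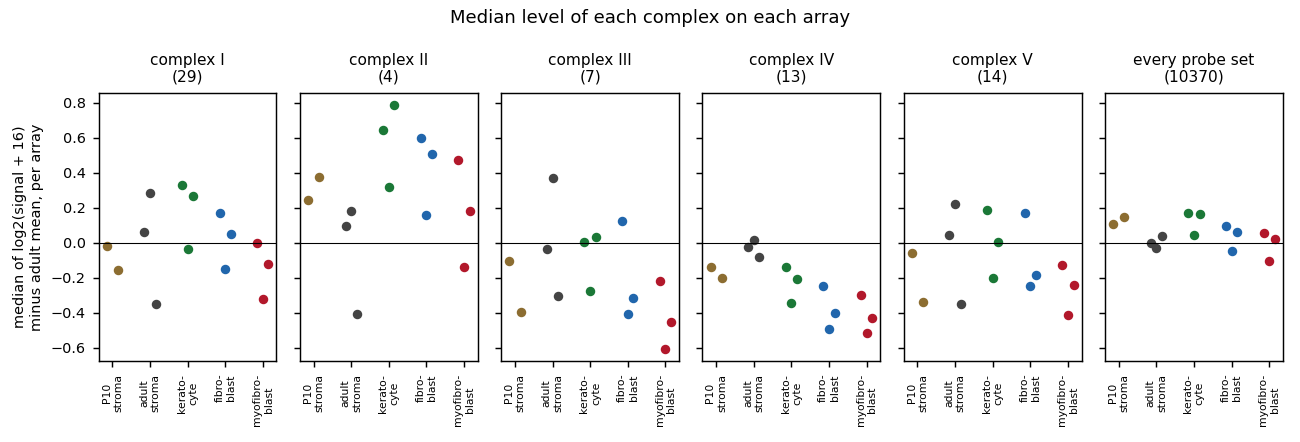
Each point is 1 array, and its height is the median over the genes of a complex of log2(signal + 16) minus the adult mean, with all 10370 probe sets in the last panel. The adult arrays spread from -0.35 to 0.29 in complex I, and in complex IV all culture arrays and the P10 arrays lie below the adult arrays.

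In complex I, Ndufs1, the largest iron-sulfur subunit of the NADH-oxidising arm, rose in every culture. Its signals were 236 and 237 in P10 stroma, 144, 177 and 161 in adult stroma, 394, 308 and 339.7 in keratocyte cultures, 406, 251 and 284 in fibroblast cultures and 330.1, 198 and 265 in myofibroblast cultures. All culture arrays were above all adult arrays, and the P10 arrays lay between adult and most culture arrays. It rose by 1.04 (SE 0.21, adjusted p = 0.00149), 0.87 (SE 0.21, adjusted p = 0.00499) and 0.64 (SE 0.21, adjusted p = 0.028) in keratocyte, fibroblast and myofibroblast cultures. The first 2 calls held in all 16 other settings, 1 of which, the median over probe sets, leaves this single-set gene's values unchanged. The third was lost with only the 2 groups fitted (0.64), and without adult 1 (0.57), adult 3 (0.64), myofibroblast 1 (0.48) or myofibroblast 3 (0.62).

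Ndufab1, the acyl carrier protein that also sits in complex I, gave 317 and 219.8 in P10 stroma, 295, 268 and 169 in adult stroma, 751, 415 and 591 in keratocyte cultures, 609, 297 and 321 in fibroblast cultures and 470.0, 301 and 373 in myofibroblast cultures. It rose in keratocyte cultures by 1.20 (SE 0.30, adjusted p = 0.00707), where all arrays were above the adult ones, in all settings tried. In the other cultures the differences of 0.67 (SE 0.30, adjusted p = 0.11) and 0.62 (SE 0.30, adjusted p = 0.133) did not pass. Ndufv2, an iron-sulfur subunit of the NADH-binding part, rose in keratocyte cultures by 0.73 (SE 0.23, adjusted p = 0.0263), from 479, 858 and 416 to 936, 863 and 1009. The lowest keratocyte array was just above adult 2. The call was lost with arrays centred on their medians (0.56), for the median of its probe sets (0.38) and with only the 2 groups fitted (0.73), and without adult 1 (0.63), adult 3 (0.53), keratocyte 1 (0.73) or keratocyte 3 (0.68), and a second, dimmer probe set of Ndufv2, within background, differed by 0.02 (adjusted p = 0.948). Ndufaf4, an assembly factor, rose by 1.12 (SE 0.30, adjusted p = 0.0113) from 41.6, 16.8 and 40.7 to 100.2, 68.8 and 96.4, all within the background range, and lost its call for the median of its probe sets (0.39). Ndufb6, an accessory subunit of the membrane arm, is the remaining complex I call in keratocyte cultures and was named after its values were seen. It rose by 0.80 (SE 0.22, adjusted p = 0.012), lost for the median of its probe sets (0.61), and without adult 3 (0.60).

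Ndufb3, an accessory subunit of the membrane arm, went the other way. Its signals were 875 and 724 in P10 stroma, 1170.0, 1288 and 776 in adult stroma, 843, 626 and 772 in keratocyte cultures, 665, 655 and 602 in fibroblast cultures and 605, 585 and 654 in myofibroblast cultures. All fibroblast and myofibroblast arrays were below the lowest adult array. It fell in these cultures, with differences of -0.71 (SE 0.19, adjusted p = 0.0101) and -0.76 (SE 0.19, adjusted p = 0.00593), and differed by -0.50 (SE 0.19, adjusted p = 0.0571) in keratocyte cultures, which did not pass. The fibroblast call was lost with only the 2 groups fitted (-0.71), and the myofibroblast call held in all settings tried. Ndufb2, another accessory subunit, fell in myofibroblast cultures from 803, 1103 and 819.6 to 723, 623 and 653, a difference of -0.43 (SE 0.15, adjusted p = 0.0448), and a second probe set gave -0.56 (adjusted p = 0.0427). The call was lost with arrays centred on their medians (-0.42), with array quality weights (-0.27), for the median of its probe sets (-0.29) and with only the 2 groups fitted (-0.43), and without adult 2 (-0.28), myofibroblast 1 (-0.49), myofibroblast 2 (-0.38) or myofibroblast 3 (-0.41). Of the other central subunits, Ndufv1, which binds NADH, read 685 ± 205 in adult stroma and 684 ± 61.1, 678 ± 75.5 and 602 ± 63.7 in the cultures (SD, n = 3 each), with adjusted p of 0.921, 0.959 and 0.593. Ndufs3 differed by 0.20, 0.08 and -0.14 and was not called.

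In complex II, both membrane anchors had calls for higher signals and the iron-sulfur subunit had a call for a lower signal. Sdhc, an anchor that helps bind ubiquinone, gave 493 and 586 in P10 stroma, 396, 458 and 417 in adult stroma, 759, 718 and 861 in keratocyte cultures, 723, 630.3 and 667 in fibroblast cultures and 658, 461 and 669 in myofibroblast cultures. Every culture array was above every adult array. It rose by 0.85 (SE 0.17, adjusted p = 0.00126), 0.65 (SE 0.17, adjusted p = 0.0083) and 0.46 (SE 0.17, adjusted p = 0.0471). The first 2 calls held in all 16 settings, and the third was lost with 64 added to the signal (0.42) and with only the 2 groups fitted (0.46), and without adult 1 (0.41), adult 3 (0.45), myofibroblast 1 (0.38) or myofibroblast 3 (0.37). Sdhd, the other anchor, gave 581 and 629 in P10 stroma, 515, 539.9 and 353 in adult stroma, 697, 650.0 and 814 in keratocyte cultures, 679.9, 596 and 664 in fibroblast cultures and 636, 448 and 469 in myofibroblast cultures. Its keratocyte and fibroblast arrays were above all adult arrays, and its myofibroblast arrays overlapped them. It rose in keratocyte cultures by 0.62 (SE 0.19, adjusted p = 0.0211), a call lost with arrays centred on their medians (0.45), and without adult 3 (0.43), keratocyte 1 (0.64) or keratocyte 3 (0.53), and differed by 0.47 (SE 0.19, adjusted p = 0.0717) and 0.14 (SE 0.19, adjusted p = 0.597) in the others.

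Sdhb, which carries the iron-sulfur clusters between the flavoprotein and the anchors, gave 550.2 and 423 in P10 stroma, 675, 876 and 482 in adult stroma, 698, 521 and 588 in keratocyte cultures, 598, 528 and 447 in fibroblast cultures and 449, 427 and 403 in myofibroblast cultures. All myofibroblast arrays were below the lowest adult array, while the other cultures overlapped adult stroma. It fell in myofibroblast cultures, with a difference of -0.61 (SE 0.21, adjusted p = 0.0366), a call lost with arrays centred on their medians (-0.61) and with only the 2 groups fitted (-0.61), and without adult 1 (-0.59), adult 2 (-0.41), myofibroblast 1 (-0.65), myofibroblast 2 (-0.61) or myofibroblast 3 (-0.57). Sdha read 66.9 ± 24.9 in adult stroma and 103 ± 26.4, 90.2 ± 25.1 and 78.4 ± 23.4 in the cultures (SD, n = 3 each), all within background. Its differences of 0.55, 0.38 and 0.20 were not called.

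In complex III, Uqcrq, a small subunit near the cytochrome b core, rose in myofibroblast cultures. Its signals were 905 and 793 in P10 stroma, 927, 1393 and 834 in adult stroma, 1506, 1187 and 1541 in keratocyte cultures, 1599, 1375 and 1280.0 in fibroblast cultures and 1707, 1730.4 and 1601 in myofibroblast cultures. The myofibroblast arrays were above all other arrays. It rose there by 0.70 (SE 0.18, adjusted p = 0.00885), in all settings tried, and differed by 0.44 (SE 0.18, adjusted p = 0.0803) and 0.46 (SE 0.18, adjusted p = 0.0751) in keratocyte and fibroblast cultures, which overlapped adult 2 and did not pass. Uqcrc2, a core protein of the matrix side, gave 382 and 292 in P10 stroma, 416, 441 and 307 in adult stroma, 346, 247 and 278 in keratocyte cultures, 298, 209.5 and 254 in fibroblast cultures and 233, 212 and 249 in myofibroblast cultures. All fibroblast and myofibroblast arrays were below all adult arrays. It fell by 0.58 (SE 0.19, adjusted p = 0.0349) and 0.70 (SE 0.19, adjusted p = 0.0128). The fibroblast call was lost with only the 2 groups fitted (-0.58), and without adult 1 (-0.52), adult 2 (-0.48), fibroblast 2 (-0.46) or fibroblast 3 (-0.59), and the myofibroblast call held in all settings. Its probe set carries the suffix of a set shared within a gene family, as do those of the called genes Cox4i1, Cox6c, Atp5d and Atp5md. The sets of Sdhb and Ndufb2 carry other suffixes (s and r). Which other genes these sets may read was not tested.

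In complex IV, Cox4i1, the widely expressed form of the subunit that modulates the enzyme, gave 681 and 477 in P10 stroma, 734, 919.9 and 626 in adult stroma, 628, 369.6 and 383 in keratocyte cultures, 569, 368 and 483 in fibroblast cultures and 484, 368 and 442 in myofibroblast cultures. All arrays of the cultures except keratocyte 1 were below the lowest adult array. It fell by 0.73 (SE 0.24, adjusted p = 0.0311), 0.67 (SE 0.24, adjusted p = 0.0463) and 0.79 (SE 0.24, adjusted p = 0.0208) in keratocyte, fibroblast and myofibroblast cultures. Its second probe set, within background, differed by 0.13, 0.38 and 0.50 (adjusted p = 0.663, 0.168 and 0.0678). The keratocyte call was lost for the median of its probe sets (-0.30), and without adult 1 (-0.74), adult 2 (-0.58), keratocyte 2 (-0.60) or keratocyte 3 (-0.62). The fibroblast call was lost with array quality weights (-0.58), for the median of its probe sets (-0.14) and with only the 2 groups fitted (-0.67), and without adult 1 (-0.69), adult 2 (-0.53), fibroblast 2 (-0.51) or fibroblast 3 (-0.69). The myofibroblast call was lost for the median of its probe sets (-0.14), and without adult 2 (-0.64) or myofibroblast 2 (-0.68).

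Cox6c, a small structural subunit, gave 1539 and 1415 in P10 stroma, 1823, 1764 and 1657 in adult stroma, 1519.5, 1347 and 1443 in keratocyte cultures, 1376, 1239 and 1408 in fibroblast cultures and 1249, 1041 and 1226 in myofibroblast cultures. Every culture array was below every adult array, and the P10 arrays were below them too. It fell by 0.38 (SE 0.12, adjusted p = 0.0324) and 0.57 (SE 0.12, adjusted p = 0.00267) in fibroblast and myofibroblast cultures, and differed by -0.28 (SE 0.12, adjusted p = 0.104) in keratocyte cultures. The fibroblast call was lost for the median of its probe sets (-0.07) and with only the 2 groups fitted (-0.38), and without adult 1 (-0.35), adult 2 (-0.37), fibroblast 1 (-0.40) or fibroblast 2 (-0.32), and the myofibroblast call for the median of its probe sets (-0.05). Cox7a2 fell in myofibroblast cultures from 924, 1214 and 831 to 692, 548 and 594, a difference of -0.67 (SE 0.19, adjusted p = 0.0137), a call lost without adult 2 (-0.51) or myofibroblast 2 (-0.59). Cox7a2l, a related protein that joins complexes III and IV in supercomplexes, fell in fibroblast cultures from 575, 964 and 549.9 to 399, 388 and 488, a difference of -0.65 (SE 0.22, adjusted p = 0.0385), a call lost with array quality weights (-0.48) and with only the 2 groups fitted (-0.65), and without adult 2 (-0.40), fibroblast 1 (-0.61) or fibroblast 2 (-0.59). Cox5b, which binds zinc, read 712 ± 210.0 in adult stroma and 1001 ± 147 in keratocyte cultures (SD, n = 3 each), a difference of 0.51 (SE 0.27, adjusted p = 0.171). It lay above 0 with Cox6b1 in all 3 cultures, the only 2 of the 13 that did.

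In complex V, Atp5md, a small membrane subunit at the dimer interface, gave 873 and 693 in P10 stroma, 1020.2, 1154 and 721 in adult stroma, 1525, 1328 and 1483 in keratocyte cultures, 1491, 1567 and 1150.5 in fibroblast cultures and 1472, 1285 and 1109.8 in myofibroblast cultures. All keratocyte arrays were above all adult arrays, and fibroblast 3 overlapped adult 2. It rose by 0.60 (SE 0.19, adjusted p = 0.0271) and 0.55 (SE 0.19, adjusted p = 0.0422) in keratocyte and fibroblast cultures, and differed by 0.43 (SE 0.19, adjusted p = 0.102) in myofibroblast cultures. The keratocyte call was lost with quantile normalization (0.43) and with arrays centred on their medians (0.43), and without adult 3 (0.41), keratocyte 1 (0.56) or keratocyte 3 (0.58). The fibroblast call was lost with quantile normalization (0.44), with arrays centred on their medians (0.48) and with only the 2 groups fitted (0.55), and without adult 1 (0.60), adult 3 (0.35), fibroblast 1 (0.50) or fibroblast 2 (0.46). Atp5d, the delta subunit of the F1 stalk, fell in myofibroblast cultures from 784, 1028 and 951 to 628, 498 and 771, a difference of -0.54 (SE 0.17, adjusted p = 0.0257). Its other 3 tested probe sets differed by -0.72, -0.21 and -0.19 (adjusted p = 0.0317, 0.293 and 0.424). The call was lost with array quality weights (-0.26), for the median of its probe sets (-0.34) and with only the 2 groups fitted (-0.54), and without adult 2 (-0.46), adult 3 (-0.52), myofibroblast 1 (-0.55) or myofibroblast 2 (-0.39). Atp5a1, the catalytic head's alpha subunit, read 1191 ± 304 in adult stroma and 1534 ± 133, 1293 ± 368 and 1088 ± 232 in the cultures (SD, n = 3 each), with no call. Atp5c1, the rotating gamma subunit, differed by 0.37, 0.15 and -0.03, with no call. Its second probe set differed by 0.63, 0.27 and 0.12, also with no call. A brighter set with the symbols Atp5c1 and Atp5c1-ps, left out by the rule, differed by -0.17, -0.46 and -0.67, with no call.

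**Figure D4:**
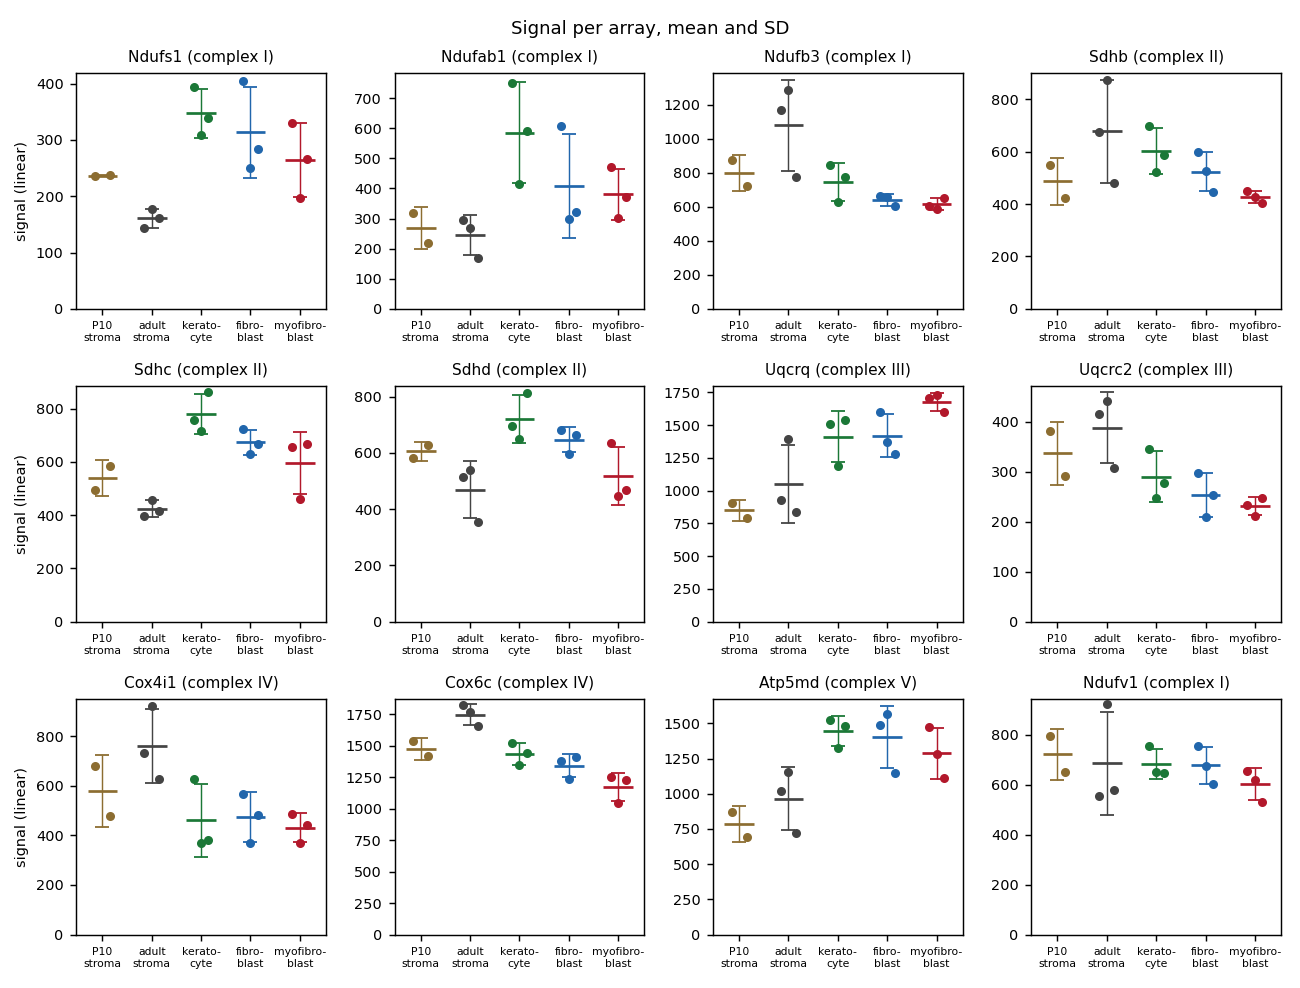
Signals on a linear axis for 12 genes, with 1 point per array, a bar for the group mean and a whisker for the SD (n = 3, and 2 for P10). Ndufs1 and Sdhc are above adult stroma on every culture array, Cox6c is below it on every culture array, and Ndufv1 overlaps between all groups.

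Between P10 and adult stroma no member was called by limma, where 3.71% of all probe sets were. At an unadjusted p below 0.05 there were 3 members (4.48%, against 14.9% of all). They were Ndufs1, at 144, 177 and 161 in adult and 236 and 237 in P10 stroma and with an adult minus P10 difference of -0.52 (SE 0.23, adjusted p = 0.304), Ndufb2, with 0.54 (SE 0.17, adjusted p = 0.107), and Cox7a2, with 0.50 (SE 0.21, adjusted p = 0.259). The adult and P10 arrays did not overlap for 13 of the 67 members, these 3 among them. Since the 3 were picked by p-values from the same arrays, this adds no support. The share over all probe sets was not counted. The 95% interval lay within 2-fold for 62 of 67 members (92.5%, against 72.1% of all). Median differences were -0.31 for complex II and 0.07, 0.25, 0.09 and 0.20 for complexes I, III, IV and V, against -0.12 for all probe sets, and 19 of 67 members (28.4%, against 66.6% of all) were below 0. With centring 8 of 67 were below 0 (43.9% of all), and with quantile normalization 13 (46.4% of all). With 2 arrays at P10 and adult arrays that spread as above, smaller differences could not be shown.

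Between cultures no member was called by limma. For fibroblast minus keratocyte cultures 1.37% of all probe sets were called. At an unadjusted p below 0.05 there was 1 member, Ndufaf4 (1.49%, against 8.63% of all probe sets). For myofibroblast minus fibroblast cultures, which adds TGF-beta1, 1.07% of all probe sets were called. No member had an unadjusted p below 0.05 there, against 8.05% of all probe sets. This fit did not pair same-numbered arrays, although those of fibroblast and myofibroblast cultures deviated together, so changes within pairs were not tested. The 95% interval lay within 2-fold for 63 of 67 members (94%, against 83.3%) in the former and 65 of 67 (97%, against 85.7%) in the latter. Small differences leaned one way. Of the 67 members 59 (88.1%, against 65.5% of all) were lower in fibroblast than in keratocyte cultures, and 53 (79.1%, against 59%) lower in myofibroblast than in fibroblast cultures. With median centring these were 42 (62.7%, against 46.8%) and 49 (73.1%, against 47.2%), and with quantile normalization 45 (67.2%, against 47.7%) and 47 (70.1%, against 47.7%).

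Lists of other mitochondrial genes were counted in the same comparisons, where 21.8% of all probe sets were called higher and 9.25% lower in keratocyte, 18.4% and 12.3% in fibroblast, and 17.5% and 15.5% in myofibroblast cultures. Nothing particular to a list was read from its counts. Of 18 tested genes of the citric acid cycle and pyruvate entry, 8 rose and none fell in keratocyte, 5 rose and 1 fell in fibroblast, and 4 rose and 3 fell in myofibroblast cultures. Pdha1, the alpha subunit of pyruvate dehydrogenase, went from 446 ± 172 in adult stroma to 1083 ± 161 in keratocyte cultures (SD, n = 3 each), by 1.30 (SE 0.22, adjusted p = 3.36e-04). Mdh2, malate dehydrogenase, rose by 1.01 (SE 0.20, adjusted p = 0.00162), 0.73 (SE 0.20, adjusted p = 0.0138) and 0.77 (SE 0.20, adjusted p = 0.00934) in the 3 cultures. Pdk1, a kinase that inhibits pyruvate dehydrogenase, fell from 171 ± 31.4 to 47.2 ± 14.4 in myofibroblast cultures, a difference of -1.58 (SE 0.29, adjusted p = 6.89e-04). Of 15 import and chaperone genes 7 rose and 1 fell in keratocyte, 3 and 1 in fibroblast, and 2 and 1 in myofibroblast cultures. Timm17a, a channel subunit of the inner membrane, rose by 1.34 (SE 0.27, adjusted p = 0.00152) in keratocyte cultures, while its paralogue Timm17b fell by 0.97 (SE 0.15, adjusted p = 2.33e-04).

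Of 11 tested genes of fatty acid oxidation 4 rose and 3 fell in keratocyte, 2 and 3 in fibroblast, and 0 and 3 in myofibroblast cultures. Acaa2, a thiolase, read 1556 ± 367 in adult stroma, 758 ± 178 in keratocyte and 340.4 ± 73.3 in myofibroblast cultures (SD, n = 3 each), and fell by 1.02 (SE 0.25, adjusted p = 0.00545) and 2.13 (SE 0.25, adjusted p = 1.08e-05). Acadm, the medium-chain dehydrogenase, fell by 1.19 (SE 0.24, adjusted p = 0.00174) in keratocyte cultures, where Cpt1a, which admits fatty acids to mitochondria, rose by 1.04 (SE 0.24, adjusted p = 0.00448). Of 15 electron carriers and exchange genes 6 rose and 1 fell in keratocyte, 5 and 1 in fibroblast, and 4 and 3 in myofibroblast cultures. Vdac3, an outer membrane channel, went from 356 ± 50.2 to 809 ± 165 in keratocyte cultures, by 1.14 (SE 0.23, adjusted p = 0.00176). Gpd2, which feeds glycerol phosphate electrons to ubiquinone, fell by 0.96 (SE 0.22, adjusted p = 0.00349) there. Of 7 assembly factors 3 rose in keratocyte cultures and 1 in fibroblast cultures, with no fall in either, and in myofibroblast cultures 1 fell and none rose. Of 8 biogenesis regulators, Gabpa, a subunit of GABP, rose in keratocyte cultures by 1.07 (SE 0.30, adjusted p = 0.0145), and Esrra, an oestrogen-related receptor, fell in myofibroblast cultures, with a difference of -0.61 (SE 0.18, adjusted p = 0.0186), its second probe set, within background, also falling by 1.13 (adjusted p = 0.0011). None of these lists but the electron carriers had a called gene between P10 and adult stroma.

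The call at P10 was Cyc1, the cytochrome c1 of complex III, which the name rule does not reach. Its brighter probe set read 2856 ± 13.7 at P10 (SD, n = 2) and 1166 ± 328 in adult stroma (SD, n = 3), a difference of -1.32 (SE 0.23, adjusted p = 0.00469), and differed by 1.34 (adjusted p = 1.71e-04), 1.56 (adjusted p = 4.11e-05) and 1.69 (adjusted p = 1.78e-05) in keratocyte, fibroblast and myofibroblast cultures. Its second probe set differed by -0.19 (adjusted p = 0.636) from P10 to adult stroma and by 0.61 (adjusted p = 0.00311), 0.35 (adjusted p = 0.0602) and 0.19 (adjusted p = 0.31) in the cultures. Both probe sets were called higher in keratocyte cultures, and 1 of the 2 in each other comparison given here. The brighter set carries the suffix r, and which other genes it may read was not tested.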

How the data were processed

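Total RNA of 14 samples was hybridised to Affymetrix MG_U74Av2 arrays, 5 µg each. The deposited values are signal intensity per probe set on a linear scale, made by the authors with Microarray Suite 5.0 and scaled to a target of 150, per the labels (MAS5 in the submitters' processing notes). The treatment of low signals was not stated by the sources at hand, and detection calls were not used. Of 994 member values 1 was at the lowest value of 1. Precision is limited by how many arrays there were. Symbols came from the platform annotation: of 12422 probe sets other than controls, 10833 had 1 symbol, 396 several and 1193 none.

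Probe sets with a mean of 50 or more in at least 1 group (10370) were fitted as log2(signal + 16) by limma 3.58.1 (R 4.3.3). The model had a mean for each group over all 14 arrays, 9 residual degrees of freedom and a variance trend, two-sided, with Benjamini-Hochberg adjustment over all 10370. The fit was tested on simulated data. Members and lists were chosen with earlier results of these data known. Named genes were, by rule, up to 2 called members per complex, comparison and direction, the central subunits, the isoform pairs, the brightest and dimmest of each complex, and up to 2 called genes of each further list. Means ± SD are of signals.

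Alternatives were 1 or 64 as added constant, a filter at 100 or none, quantile normalization, median centring, array quality weights, a fit of the 2 groups alone, a block for the replicate number, the median over a gene's probe sets, and leaving out each array. The median over probe sets leaves the values of a gene with 1 probe set unchanged, as for Ndufs1, Ndufb3, Sdhc, Uqcrc2 and Uqcrq. Same-numbered arrays of fibroblast and myofibroblast cultures deviated together (correlations of 0.62, 0.68 and 0.53 for numbers 1, 2 and 3). The numbers may therefore pair these groups, which the labels do not state. No other comparison had all its correlations over 0.1. Of the 71 genes 58 matched a promoter window in RefSeq. Proteins and genome sequence were not used here.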

Additional observations from a re-analysis of the deposited data

How the results depend on the processing

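Over the 28 calls of members and the settings tried for each, 353 of 447 values kept the call, 94 kept the direction but lost the call, and none reversed. Member calls by setting moved most with array quality weights, which gave 11 for adult minus P10, 30 for keratocyte, 16 for fibroblast and 23 for myofibroblast cultures minus adult stroma, and 42 for the F test, while calls over all probe sets rose to 22.5%, 61.4%, 41.9%, 49.7% and 67.4%. Quantile normalization gave 1, 17, 15, 20 and 18 in the same order, with 4.08%, 34.1%, 33.6%, 36.5% and 37.9% of all probe sets. With only the 2 groups fitted there were 2 calls in fibroblast and 6 in myofibroblast cultures. With the replicate block, 17 members were called in myofibroblast cultures, where the numbers are not shown to pair the arrays. Myofibroblast minus fibroblast cultures had 0 calls under the block. That block was shared by all 14 arrays, and a paired fit of these cultures alone was not run. The 0 calls therefore cannot show whether members changed within pairs. Leaving out 1 array gave 0 in every case for adult minus P10, 5 to 12 for keratocyte minus adult, 3 to 14 for fibroblast minus adult, 6 to 18 for myofibroblast minus adult, 0 in every case for fibroblast minus keratocyte, 0 in every case for myofibroblast minus fibroblast and 5 to 11 for the F test. For the 2-group, block and leave-one-out fits the share of all probe sets called is not given beside these counts. Those counts are therefore not read as particular to the members. Other alternatives left the member counts within 1.5 times of those reported. Dim genes limit the reading: a difference of a probe set within background, as for Sdha, Cox5a or Ndufaf4, may be flattened, and 2 to 3 arrays a group leave intervals that reach past 2-fold for some members.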

Other observations

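Respiratory chain genes read by probe sets with several symbols were left out above. Of 10 such sets 9 passed the filter. A set for Ndufs6 and its copy Ndufs6b, a zinc-binding subunit of complex I, read 835 ± 163 in adult stroma, 458 ± 110.1 in fibroblast and 412 ± 101 in myofibroblast cultures (SD, n = 3 each). Both falls were called by limma (adjusted p = 0.0127 and 0.00437). A second set for these 2 genes was not called. A set for Cox7c and a predicted gene read 1419.9 ± 126 in adult stroma, 1892 ± 93.9 in keratocyte and 1871 ± 117 in fibroblast cultures, with differences of 0.41 and 0.40 (adjusted p = 0.0173 and 0.0218). A second set for them was not called either. No other such set was called in the 6 comparisons.

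Where a member had several probe sets, the signs of their differences often varied. For the 11 genes with 2 or more tested probe sets, this was so in 30 of 66 pairs of a gene and a comparison. That count includes differences near 0 and sets within background, and no gene had sets called in opposite directions. Sdhaf1, an assembly factor of complex II outside the name rule, differed from adult stroma by 0.06, -0.07 and -0.17 in keratocyte, fibroblast and myofibroblast cultures, with no call.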
